A study of Homo sapiens with 6 samples.

Results

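Breast cancer stem cell markers are genes whose products have been used to pick out, or are needed by, the breast tumour cells that can seed new tumours. The 8 genes described here are CD44, CD24, EPCAM, PROM1, SOX9, KLF4, MYC and BMI1. They were taken by name from the deposited expression table, and each matched 1 of its 58051 genes. FABP4 binding cells were compared with FABP4 non-binding cells, with 3 RNA sequencing libraries in each group. Both are wild-type cells of MDA-MB-231, a mesenchymal-like line established from human breast cancer, and all had been stained with fluorescein-tagged recombinant human FABP4, a fatty acid carrier, and then sorted by flow cytometry. Both groups therefore carried the stain and went through the sorter, and the findings concern 1 cell line. The labels do not say whether replicate libraries were grown or sorted separately. The p-values thus measure the spread between these libraries alone, and it may be technical.

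A surface phenotype of high CD44 and low CD24 was the first definition of tumour-initiating cells in breast cancer. CD44 is the main cell surface receptor for hyaluronan, CD24 is a short, heavily glycosylated protein held in the membrane by a lipid anchor, EPCAM is an epithelial adhesion and signalling molecule, and PROM1 encodes CD133, a glycoprotein of membrane protrusions. SOX9 and KLF4 are transcription factors of progenitor and reprogrammed cells, MYC is the growth-promoting transcription factor, and BMI1 is the Polycomb subunit that lets stem cells keep dividing. Basal-like and mesenchymal-like breast cancer lines, MDA-MB-231 among them, are known for the CD44-high, CD24-low form.

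In the binding cells CD44 and SOX9 were higher, by 1.52-fold and 1.63-fold on mean TPM (a length-corrected share of a library's transcripts, scaled to a total of 1000000). They were the only members to pass the test, which was limma on log2(TPM + 1) over all genes, with Benjamini-Hochberg adjustment at 0.05. EPCAM, KLF4, CD24, MYC and BMI1 did not pass, and PROM1 was too low to test. The calls of CD44 and SOX9 depended on the scaling of the libraries and were lost when some single libraries were left out, as given with each gene. Both changes kept their sign under each scaling and without any 1 library. Leaving out 1 library also lowered the number of higher genes over all tested genes, from 3047 to between 150 and 2097.

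The promoters of 4 members are shown because they cover the opposite ends of the surface phenotype, CD44 and CD24, and a transcription factor and a Polycomb gene whose windows hold the E-box recognised by MYC and MAX. Each is 300 bases, from 250 bases before a RefSeq transcription start to 50 bases after it (GRCh38.p14). They are written 5′ to 3′ on the gene's strand, with motifs in capitals, read on both strands: CACGTG, the E-box; GGGCGG, the GC box of SP and KLF factors; and TATAAA, the TATA box.
CD44, chr11:35138921-35139220, plus strand: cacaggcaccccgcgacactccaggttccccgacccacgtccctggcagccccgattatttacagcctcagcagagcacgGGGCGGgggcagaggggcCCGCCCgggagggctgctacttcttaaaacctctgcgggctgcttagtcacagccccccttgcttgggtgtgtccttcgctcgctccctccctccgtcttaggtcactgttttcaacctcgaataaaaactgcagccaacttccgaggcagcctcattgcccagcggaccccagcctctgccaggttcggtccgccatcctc
CD24, chr6:106975578-106975877, minus strand: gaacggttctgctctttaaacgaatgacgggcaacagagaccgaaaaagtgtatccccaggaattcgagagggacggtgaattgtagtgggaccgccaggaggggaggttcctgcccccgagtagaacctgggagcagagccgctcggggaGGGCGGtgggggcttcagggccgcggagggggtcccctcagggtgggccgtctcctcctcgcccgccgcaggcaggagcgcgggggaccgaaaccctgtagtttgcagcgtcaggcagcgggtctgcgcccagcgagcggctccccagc
KLF4, chr9:107489720-107490019, minus strand: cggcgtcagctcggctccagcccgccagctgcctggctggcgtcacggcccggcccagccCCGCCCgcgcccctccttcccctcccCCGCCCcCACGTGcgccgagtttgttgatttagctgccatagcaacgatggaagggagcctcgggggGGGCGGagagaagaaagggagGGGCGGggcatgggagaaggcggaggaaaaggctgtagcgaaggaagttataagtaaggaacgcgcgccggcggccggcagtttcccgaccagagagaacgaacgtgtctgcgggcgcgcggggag
BMI1, chr10:22320849-22321148, plus strand: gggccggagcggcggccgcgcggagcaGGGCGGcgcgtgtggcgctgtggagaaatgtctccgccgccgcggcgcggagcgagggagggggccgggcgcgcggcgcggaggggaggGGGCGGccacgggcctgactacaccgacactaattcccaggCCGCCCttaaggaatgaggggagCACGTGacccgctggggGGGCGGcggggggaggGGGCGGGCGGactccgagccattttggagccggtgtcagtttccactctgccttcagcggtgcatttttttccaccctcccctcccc

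The RefSeq table held windows for 5 of the 8 members, 11 windows in all. CACGTG lay once in the KLF4 window and once in this BMI1 window, and in none of the other 9, where 7.26% of all 35116 windows in the table held it. GC boxes numbered 4 in the KLF4 window, 6 in this BMI1 window, of which the last 2 overlap, 2 in the CD44 window and 1 in this CD24 window. Of all windows, 45.0% held at least 1 GC box. The windows shown were richer in G and C, at 63.3% (CD44), 66.7% (CD24), 69.0% (KLF4) and 73.3% (BMI1), against a median of 58.7% over all windows. The shares over all windows were not matched for this. TATAAA was in none of the 11 windows and in 11.5% of all windows. These are matches of letters only, and none is shown to be a bound site.

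The libraries differed in ways that bear on every member. A total of 15574 genes had at least 1 TPM in at least 3 libraries and were tested, and their median log2 change, binding minus non-binding, was 0.36. Of these genes 19.6% were higher and 7.12% lower in the binding cells, so that 73.3% of the calls were rises. When all libraries were given the same median log2(TPM + 1), below called the common median, 6.18% were higher and 12.1% lower (33.7% of the calls were rises), and with quantile normalization 7.69% were higher and 8.0% lower (49.0%). Transcripts of the mitochondrial genome took 9.99% to 11.2% of TPM in the binding libraries and 2.98% to 3.38% in the non-binding libraries. With these transcripts left out and TPM rescaled, 28.4% of 15756 genes were higher and 5.16% lower (84.6% of the calls were rises). The median log2 change was then 0.45, and CD44 and SOX9 were again the only members that passed. Depth is unknown, since every library sums to 1000000 TPM.

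Markers that define the line were checked. The mesenchymal genes VIM, AXL, ZEB1, FN1, CAV1 and MSN summed to 2109 to 2210 TPM in the binding libraries and 1801 to 1874 TPM in the non-binding libraries, the oestrogen receptor gene ESR1 was listed at 0 in all 6, and PGR reached at most 0.0573 TPM. Of other genes known to be low in the line, ERBB2 lay between 9.75 and 14.7 TPM and did not pass, and the epithelial cadherin gene CDH1 was lower at 3.43 ± 0.645 TPM in binding against 6.50 ± 0.686 TPM in non-binding cells (SD, n = 3 each). CDH1 also passed after either scaling, but its call was lost without any 1 library. Against the label, transcripts of epidermal keratinocytes were present, of which KRT1, KRT5, KRT10, KRT14 and LOR made up most and TP63, DSG1 and DSC3 were low. The 10 markers KRT1, KRT2, KRT5, KRT10, KRT14, DSG1, DSC3, FLG, LOR and TP63 summed to 1223, 2271 and 1896 TPM in binding replicates 1, 2 and 3, against 3728, 4254 and 2949 TPM in non-binding replicates 1, 2 and 3. Of the 10, 7 were lower in the binding cells and none was higher, and none was at 0 in all libraries. CDKN2A, a gene deleted in MDA-MB-231, was picked after its values were seen. It was listed at 1.95, 1.93 and 2.52 TPM in the binding libraries, against 7.20, 2.20 and 3.47 TPM in the non-binding libraries. The ranges of the groups overlapped for CDKN2A, and its difference fell short of the threshold. Keratinocytes are known to express CD44, KLF4 and MYC as well. The part of epidermal transcripts in the results below was not tested for any member, CD24 and SOX9 included, or for the CD44 to CD24 ratio. In bulk libraries fewer cells of a type and less RNA per cell cannot be told apart. The 8 leukocyte and blood markers, PTPRC, CD14 and LYZ among them, summed to 17.4 to 30.6 TPM in binding and 22.9 to 38.6 TPM in non-binding libraries, with MS4A1 at 0 throughout. Fibroblast markers (COL1A1, COL1A2, DCN, LUM and PDGFRB) summed to 26.0 to 61.2 TPM in binding and 31.4 to 56.3 TPM in non-binding libraries, and endothelial markers (PECAM1, VWF and CDH5) to 0.940 to 2.49 TPM in binding and 1.21 to 2.65 TPM in non-binding libraries.

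**Figure D1:**
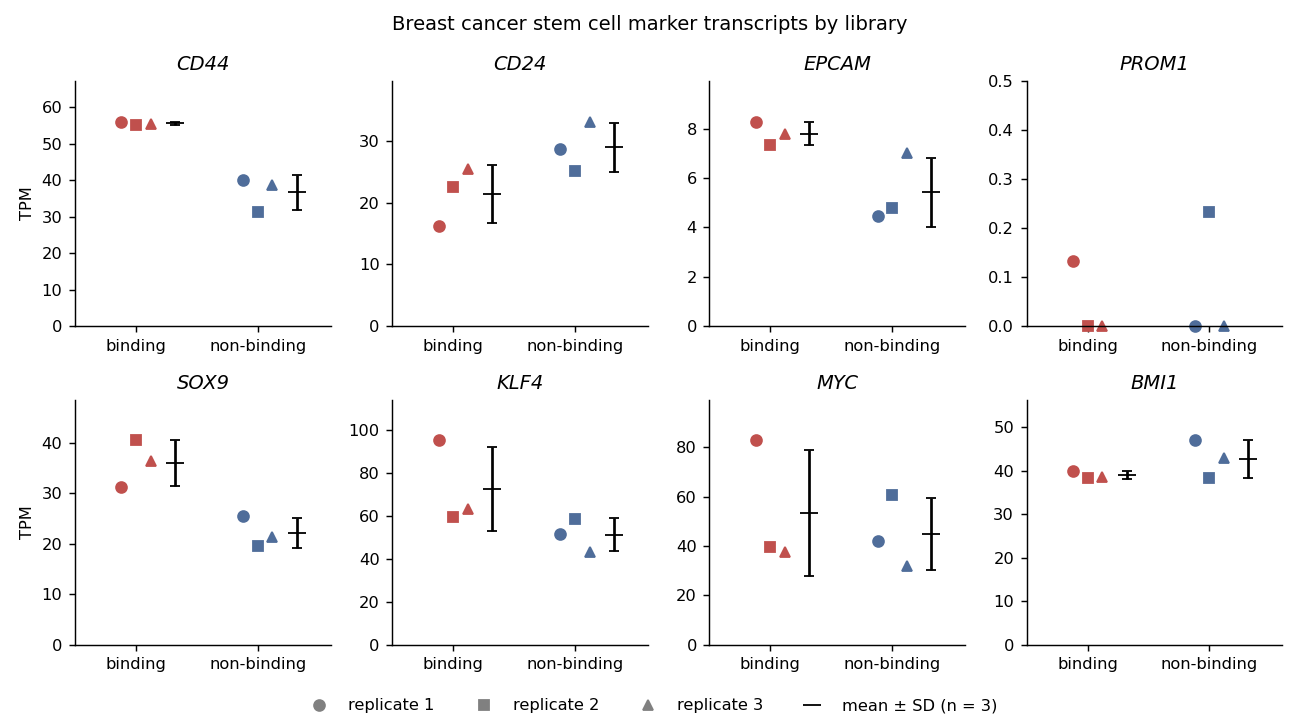
TPM of the 8 markers in each library (vertical axes, each starting at 0), with binding libraries in red and non-binding libraries in blue, the symbol giving the replicate and the bar the mean ± SD of 3 libraries. CD44, SOX9, EPCAM and KLF4 have groups that do not overlap, as do 52.2% of all tested genes. Binding replicate 1 stands far above the other binding libraries for KLF4 and MYC. No mean is drawn for PROM1, which is listed at 0 in 4 of 6 libraries.

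As levels in TPM, the order of group means in the binding cells was KLF4, CD44, MYC, BMI1, SOX9, CD24, EPCAM and PROM1. In the non-binding cells it was KLF4, MYC, BMI1, CD44, CD24, SOX9, EPCAM and PROM1. CD44 thus ranked 2 in the binding cells and 4 in the non-binding cells. In the binding libraries the ranges of the neighbours CD44 and MYC, MYC and BMI1, and BMI1 and SOX9 overlapped, while KLF4 lay above CD44 and SOX9 above CD24 in every library. In the non-binding libraries each pair of neighbours from KLF4 down to SOX9 overlapped. In both groups EPCAM lay below every member but PROM1. By mean log2(TPM + 1) over the 6 libraries the tested members stood between percentile 41 of tested genes (EPCAM) and percentile 85.5 (KLF4). CD44 stood at percentile 81.5 and CD24 at percentile 70.8, so the CD24 transcript ranked above most tested genes. A rank among genes does not say whether CD24 is low next to other cells or lines, or at the cell surface.

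The surface receptor CD44 (ENSG00000026508, chromosome 11, 35138870 to 35232402, hg38) was listed at 56.0, 55.2 and 55.5 TPM in binding replicates 1, 2 and 3, against 40.1, 31.2 and 38.7 TPM in non-binding replicates 1, 2 and 3. The 3 binding libraries were nearly equal and all lay above the non-binding libraries. The mean was 55.6 ± 0.398 TPM in binding cells and 36.7 ± 4.80 TPM in non-binding cells (SD, n = 3 each), a log2 change of 0.59 with an SE of 0.15 (Benjamini-Hochberg adjusted p = 0.027 by limma), which is 0.24 above the median of all genes. With the common median the change was 0.28 and with quantile normalization 0.35, and neither passed (limma, adjusted p = 0.18 and 0.107). The call was also lost without an intensity trend (adjusted p = 0.0527 by limma) and without any 1 of binding replicates 2 and 3 or non-binding replicates 2 and 3 (adjusted p = 0.0566, 0.0611, 0.0772 and 0.0693 by limma). With 1 library left out the change ran from 0.49 to 0.66. GENCODE release 29 lists 39 transcripts of CD44, 26 of them protein coding, many differing in the variable exons. The table gives 1 value for the gene, so the standard and variant forms cannot be told apart. Its antisense gene CD44-AS1, which shares 84 exonic bases, was listed at 0 in the binding libraries and in non-binding replicate 1, and at 2.94 and 1.50 TPM in non-binding replicates 2 and 3. Whether the reads kept their strand is not stated.

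CD24 (ENSG00000272398, chromosome 6, 106969831 to 106975627) was listed at 16.2, 22.5 and 25.4 TPM in binding replicates 1, 2 and 3, against 28.6, 25.1 and 33.1 TPM in non-binding replicates 1, 2 and 3. The groups overlapped narrowly, since binding replicate 3 lay above non-binding replicate 2. The mean was 21.4 ± 4.73 TPM in binding cells and 28.9 ± 3.98 TPM in non-binding cells (SD, n = 3 each). The log2 change of -0.43 (95% interval -0.90 to 0.04; limma, Benjamini-Hochberg adjusted p = 0.134) did not pass. The change was -0.75 under either scaling, common median or quantile, and again missed the threshold (limma, adjusted p = 0.0602 and 0.0664). Its processed copies CD24P1 and CD24P2 were listed at 0 in all libraries, so the counting may have given shared reads to CD24.

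The ratio of the 2 surface genes, (CD44 + 1)/(CD24 + 1) in TPM, was 3.32, 2.39 and 2.14 in binding replicates 1, 2 and 3, against 1.39, 1.23 and 1.17 in non-binding replicates 1, 2 and 3. Every binding library lay above every non-binding library. Taken singly, 52.2% of all tested genes had groups that did not overlap, and no such share was worked out for ratios of genes. The mean ratio was 2.62 ± 0.621 in binding and 1.26 ± 0.114 in non-binding cells (SD, n = 3 each), a difference of 1.03 in mean log2 ratio. A ratio within a library does not depend on how the library is scaled, apart from the added 1. As a score over chosen members it carries no test, and CD24 by itself did not pass. It is a ratio of transcripts in a mixed sample, not of proteins on single cells.

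**Figure D2:**
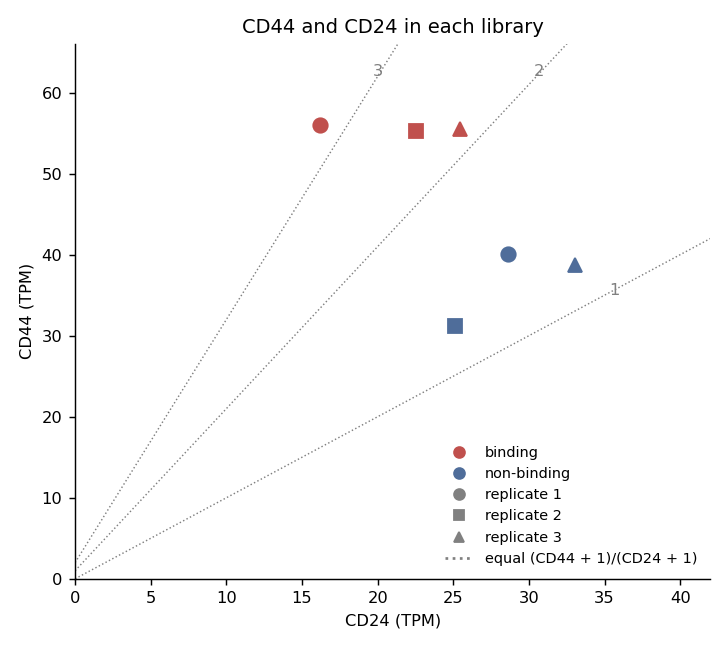
CD44 (vertical axis, TPM) against CD24 (horizontal axis, TPM) in the 6 libraries, with dotted lines of equal (CD44 + 1)/(CD24 + 1) at 1, 2 and 3. The binding libraries (red) lie between ratios of 2.14 and 3.32 and the non-binding libraries (blue) between 1.17 and 1.39.

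EPCAM (ENSG00000119888, chromosome 2, 47345158 to 47387601) was low, at 8.27, 7.33 and 7.76 TPM in binding replicates 1, 2 and 3, against 4.44, 4.80 and 7.01 TPM in non-binding replicates 1, 2 and 3. The groups did not overlap, but non-binding replicate 3 lay close to the binding libraries. The mean was 7.79 ± 0.472 TPM in binding cells and 5.42 ± 1.39 TPM in non-binding cells (SD, n = 3 each), and the log2 change of 0.47 did not pass (95% interval -0.03 to 0.98; limma, Benjamini-Hochberg adjusted p = 0.132). PROM1 (ENSG00000007062, chromosome 4, 15963076 to 16084378) was listed at 0.134 TPM in binding replicate 1 and 0 in binding replicates 2 and 3, against 0.233 TPM in non-binding replicate 2 and 0 in non-binding replicates 1 and 3. It did not reach the filter and was not tested. A listed 0 is not read as absence, since depth is unknown.

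SOX9 (ENSG00000125398, chromosome 17, 72121020 to 72126420), a factor of mammary stem and luminal progenitor cells, was listed at 31.3, 40.4 and 36.2 TPM in binding replicates 1, 2 and 3, against 25.4, 19.5 and 21.3 TPM in non-binding replicates 1, 2 and 3. The groups did not overlap. The mean was 36.0 ± 4.58 TPM in binding cells and 22.1 ± 3.00 TPM in non-binding cells (SD, n = 3 each), a log2 change of 0.68 with an SE of 0.17 (Benjamini-Hochberg adjusted p = 0.0277 by limma), which is 0.32 above the median of all genes. With the common median the change was 0.36 and with quantile normalization 0.38, and neither passed (limma, adjusted p = 0.196 and 0.179). The call was also lost without either of binding replicates 2 and 3 (adjusted p = 0.0685 and 0.0623 by limma). Nor did SOX9 pass without either of non-binding replicates 2 and 3 (adjusted p = 0.0818 and 0.0815 by limma). With 1 library left out the change ran from 0.60 to 0.78.

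KLF4 (ENSG00000136826, chromosome 9, 107484852 to 107490482), a reprogramming factor that also acts in epidermal differentiation, was listed at 95.3, 59.8 and 63.3 TPM in binding replicates 1, 2 and 3, against 51.8, 58.8 and 43.4 TPM in non-binding replicates 1, 2 and 3. The groups did not overlap, though binding replicate 2 and non-binding replicate 2 were nearly equal. The mean was 72.8 ± 19.6 TPM in binding cells and 51.3 ± 7.70 TPM in non-binding cells (SD, n = 3 each). The log2 change of 0.48 missed the threshold (95% interval 0.00 to 0.96, the lower bound being just under 0; limma, Benjamini-Hochberg adjusted p = 0.115), and it was 0.27 without binding replicate 1.

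MYC (ENSG00000136997, chromosome 8, 127735434 to 127741434) varied most within groups. It was listed at 82.8, 39.7 and 37.6 TPM in binding replicates 1, 2 and 3, against 42.1, 60.8 and 31.8 TPM in non-binding replicates 1, 2 and 3. The groups overlapped widely, with the highest value in binding replicate 1, the next in non-binding replicate 2 and the lowest in non-binding replicate 3. The mean was 53.4 ± 25.5 TPM in binding cells and 44.9 ± 14.7 TPM in non-binding cells (SD, n = 3 each), and the log2 change of 0.20 missed the threshold (95% interval -0.58 to 0.98; limma, Benjamini-Hochberg adjusted p = 0.665). Its sign was not stable: the change was -0.12 after the common median, -0.01 after quantile normalization, -0.16 without binding replicate 1 and -0.02 without non-binding replicate 3. So wide an interval does not show that MYC was alike in the 2 groups.

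BMI1 (ENSG00000168283, chromosome 10, 22321211 to 22331484) was the tested member with the smallest SE of its change, 0.14, at 40.0, 38.3 and 38.7 TPM in binding replicates 1, 2 and 3, against 47.0, 38.3 and 42.9 TPM in non-binding replicates 1, 2 and 3. The groups overlapped. The mean was 39.0 ± 0.896 TPM in binding cells and 42.7 ± 4.34 TPM in non-binding cells (SD, n = 3 each), and the log2 change of -0.13 did not pass (95% interval -0.45 to 0.20; limma, Benjamini-Hochberg adjusted p = 0.503). Relative to the median of all genes the change was -0.48, and with the common median, at -0.44, it passed as lower in the binding cells (limma, adjusted p = 0.0464), but not with quantile normalization (-0.39; limma, adjusted p = 0.0729). The readthrough gene COMMD3-BMI1, which shares 1000 exonic bases with BMI1, was listed at 0 in all libraries, so its reads, if any, may have been given to BMI1.

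Of the 8 members, 7 passed the filter on low values, 2 were higher and 5 did not pass the test, set beside 19.6% of all tested genes that were higher. The groups did not overlap for 4 of the 7 and for 52.2% of all tested genes. The median log2 change over the 7 was 0.47, which exceeds the median of all genes by 0.12. After the common median no member was higher and 1, BMI1, was lower; after quantile normalization none passed in either direction. Without any 1 of binding replicates 2 and 3 or non-binding replicates 2 and 3, no member passed. Binding replicate 1 held the highest value of its group for 5 of the 7 tested members and the lowest for the other 2, CD24 and SOX9.

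**Figure D3:**
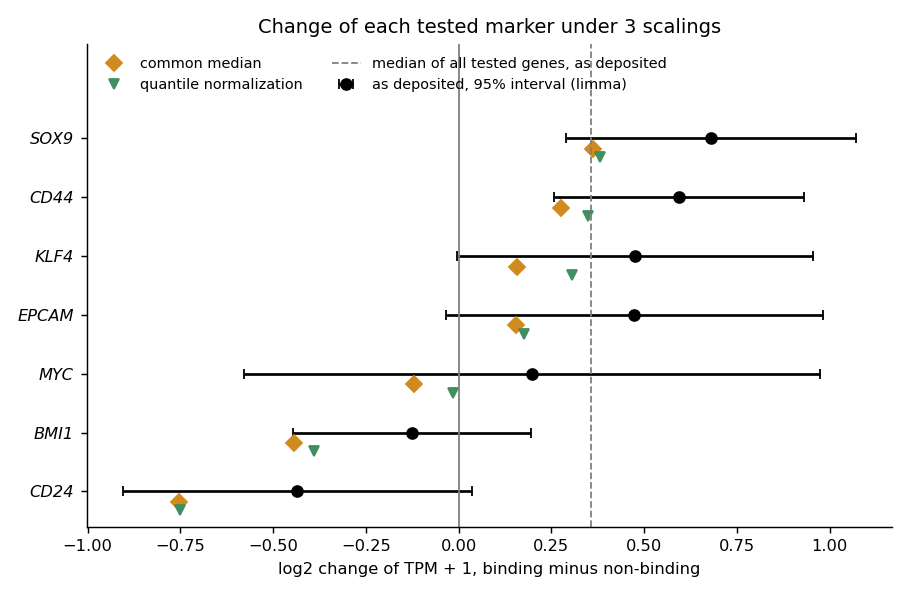
Log2 change of TPM + 1, binding minus non-binding (horizontal axis), of the 7 tested markers, with 95% intervals from limma for the deposited values (black) and the same change after a common median (orange) and quantile normalization (green). The dashed line is the median of all tested genes, 0.36; only CD44 and SOX9 passed as deposited, and no marker passed as higher after either scaling.

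Of 24 genes of hyaluronan turnover and CD44 partners, 19 were tested; 7 rose, 1 fell and 11 did not pass, where 19.6% of all tested genes rose and 7.12% fell. The list's median log2 change was 0.11, against 0.36 over all genes. CEMIP, which drives hyaluronan breakdown, was listed at 171, 149.7 and 150.2 TPM in binding replicates 1, 2 and 3, against 50.9, 62.4 and 50.9 TPM in non-binding replicates 1, 2 and 3. The groups were far apart, and the log2 change was 1.51 (SE 0.14; limma, Benjamini-Hochberg adjusted p = 0.00308). CEMIP still passed after the common median (1.19), after quantile normalization (1.41) and in each of the 6 fits that lacked a library. HYAL2, a membrane-anchored hyaluronidase, changed by 0.76 and SLC7A11, the cystine carrier that CD44 variant forms stabilise, by 0.84 (limma, Benjamini-Hochberg adjusted p = 0.0258 and 0.0244). HYAL2 shares 509 exonic bases with TUSC2 on the same strand, so its value is uncertain. The other genes that were higher, named after their values were seen, were CEMIP2, HYAL3, IQGAP1 and EZR, which encodes ezrin and links CD44 to actin. RDX, which encodes radixin of the same linker family, was the gene that was lower, at 49.5, 63.0 and 61.8 TPM in binding replicates, against 90.7, 73.7 and 94.5 TPM in non-binding replicates. Of genes also picked after their values were seen, the hyaluronan synthase gene HAS2 stayed between 0.413 and 3.58 TPM in all libraries and did not pass. ESRP1 and ESRP2, the splicing factors that favour variant CD44 in epithelial cells, did not pass. In the binding cells ESRP1 had a mean of 6.13 TPM and ESRP2 of 4.54 TPM, against 5.76 TPM for ESRP1 and 6.40 TPM for ESRP2 in the non-binding cells. After the common median 2 genes of the list were higher and 4 lower, after quantile normalization 1 and 2, without a filter 3 and 0, without an intensity trend 4 and 0, without mitochondrial genome transcripts 8 and 0. The number higher was 3 without binding replicate 3, 2 without either of binding replicate 2 and non-binding replicate 1, and 1 without either of non-binding replicates 2 and 3, and the lower call of RDX was lost without any 1 library.

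Of 14 EPCAM partners 13 were tested, 3 were higher, 2 were lower and 8 did not pass, beside 19.6% higher and 7.12% lower over all tested genes, with a median log2 change of 0.31. The protease inhibitor SPINT1 was lower by a log2 change of -0.78, while its relative SPINT2 was higher by 0.89 and ADAM17, the sheddase that starts EPCAM cleavage, by 0.69 (limma, Benjamini-Hochberg adjusted p = 0.0199, 0.0125 and 0.0215). ADAM17 shares 1323 exonic bases with IAH1 on the opposite strand, so its value is uncertain if strand was not kept. CD9, a tetraspanin, named after its value was seen, was the remaining gene that was higher, by 0.65. After the common median 1 gene was higher and 3 lower, after quantile normalization 1 and 2. The number higher was 2 without binding replicate 2, 1 without either of non-binding replicates 1 and 2 and 0 without non-binding replicate 3, and the number lower was 1 without binding replicate 3 and 0 without either of non-binding replicates 2 and 3. The fall of SPINT1 stands beside those of the epidermal markers, whose part in it was not tested. PROM2, the paralogue of PROM1, was listed at 4.01, 6.09 and 4.65 TPM in binding replicates, against 8.04, 7.55 and 9.17 TPM in non-binding replicates, and narrowly missed the threshold (log2 change -0.66; limma, Benjamini-Hochberg adjusted p = 0.0543), which it passed after either scaling.

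Among the other SOX factors 8 of 18 were tested and 2 were higher, with none lower, beside 19.6% higher and 7.12% lower over all tested genes. The list's median log2 change was 0.40. SOX12, of the same group as SOX4, was listed at 31.0, 26.4 and 25.2 TPM in binding replicates, against 11.9, 13.8 and 8.58 TPM in non-binding replicates (log2 change 1.22, SE 0.20; limma, Benjamini-Hochberg adjusted p = 0.0136). SOX13 changed by 1.02 and SOX4 by 0.50, and the second missed the threshold (by limma with Benjamini-Hochberg adjustment, adjusted p = 0.0207 and 0.0718). SOX12 and SOX13 also passed after either scaling, but 1 of them passed without non-binding replicate 2 and none without non-binding replicate 3. SOX10, the paralogue of SOX9, was listed at 0 in all libraries, and SOX8 at 0, 0.269 and 0.779 TPM in binding replicates, against 0.180, 0 and 0 TPM in non-binding replicates.

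Of 16 other KLF factors 12 were tested, 3 were higher and none lower, near the 19.6% and 7.12% of all tested genes, with a median log2 change of 0.38. KLF10, a gene induced by TGF-beta, was listed at 65.1, 45.5 and 46.7 TPM in binding replicates, against 28.9, 27.8 and 25.4 TPM in non-binding replicates (log2 change 0.90, SE 0.18; limma, Benjamini-Hochberg adjusted p = 0.0171). KLF11 and KLF16 changed by 0.86 and 0.62 (limma, Benjamini-Hochberg adjusted p = 0.0302 and 0.0377). KLF2 had a mean of 23.0 ± 8.24 TPM in binding against 14.1 ± 4.18 TPM in non-binding cells, and KLF5 of 20.2 ± 2.27 against 16.9 ± 3.27 TPM (SD, n = 3 each). Neither passed, and for KLF5 the log2 change, 0.26 as deposited, was -0.06 after the common median and -0.07 after quantile normalization. After the common median KLF10 alone was higher and 1 factor was lower, and 1 was higher after quantile normalization and without a filter. The number higher was 2 without either of binding replicates 1 and 3, 1 without either of binding replicate 2 and non-binding replicate 1, and 0 without either of non-binding replicates 2 and 3.

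Of 19 genes of the MYC and MAX network 17 were tested; 2 rose, 1 fell and 14 did not pass, where 19.6% of all tested genes rose and 7.12% fell, with a median log2 change of 0.10. The number that rose was 6 without mitochondrial genome transcripts, 4 among genes of at least 5 TPM and 0 without a filter or after either scaling. MAX, the obligate partner of MYC, was listed at 241, 355 and 350 TPM in binding replicates, against 517, 555 and 536 TPM in non-binding replicates. The groups were far apart (log2 change -0.79, SE 0.17; limma, Benjamini-Hochberg adjusted p = 0.0202). MAX also passed after the common median (-1.10) and quantile normalization (-0.69), but it did not pass without either of non-binding replicates 2 and 3. MXD4, which competes with MYC for MAX, changed by 0.80, and PVT1, the long noncoding neighbour of MYC, by 0.94 (limma, Benjamini-Hochberg adjusted p = 0.0263 and 0.0303), both lost under either scaling. The paralogue MYCL had a mean of 1.80 ± 0.993 TPM in binding against 2.55 ± 0.551 TPM in non-binding cells (SD, n = 3 each) and did not pass, and MYCN stayed at or under 0.229 TPM in every library. The number of higher network genes was 1 without any 1 of binding replicates 1 and 2 and non-binding replicate 1, and 0 without any 1 of binding replicate 3 and non-binding replicates 2 and 3.

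All 36 textbook MYC targets, mostly genes of ribosome making and growth, were tested; 8 were higher, 4 lower and 24 did not pass, near the 19.6% and 7.12% of all tested genes. After the common median 3 were higher and 7 lower, after quantile normalization 6 and 3. The numbers were 17 and 2 without mitochondrial genome transcripts, 5 and 2 without a filter, and 3 and 1 without an intensity trend. The list's median log2 change, 0.39, lay close to that of all genes. NOP58, of the small nucleolar ribonucleoproteins, was lower at 386, 488 and 468 TPM in binding replicates, against 778, 743 and 829 TPM in non-binding replicates (log2 change -0.81, SE 0.13; limma, Benjamini-Hochberg adjusted p = 0.0131). LDHA, the lactate dehydrogenase subunit, was higher at 861, 658 and 660 TPM in binding replicates, against 428, 400.3 and 399.6 TPM in non-binding replicates (log2 change 0.81, SE 0.14; limma, Benjamini-Hochberg adjusted p = 0.0139). MYBBP1A, a nucleolar protein, changed by 0.85 (limma, Benjamini-Hochberg adjusted p = 0.0174). The number higher was 5 without non-binding replicate 1 and 0 without either of non-binding replicates 2 and 3, and the number lower was 2 without binding replicate 2, 1 without any 1 of binding replicate 3 and non-binding replicates 1 and 2, and 0 without non-binding replicate 3.

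BMI1 supports the ubiquitin ligases RNF2 and RING1 in Polycomb repressive complex 1. Of 24 genes of or around this complex, all tested, 3 rose, 1 fell and 20 did not pass, beside 19.6% and 7.12% of all tested genes, with a median log2 change of 0.28. Without mitochondrial genome transcripts 8 rose and 0 fell, among genes of at least 5 TPM 6 and 2, without an intensity trend 1 and 0, and without a filter 0 and 0. RNF2 was lower at 40.9, 53.0 and 54.8 TPM in binding replicates, against 84.8, 64.9 and 80.0 TPM in non-binding replicates (log2 change -0.62, SE 0.17; limma, Benjamini-Hochberg adjusted p = 0.035). PCGF2, the paralogue of BMI1 that can take its place in the complex, was higher at 51.7, 29.9 and 32.8 TPM in binding replicates, against 20.9, 16.5 and 24.4 TPM in non-binding replicates (log2 change 0.83, SE 0.24; limma, Benjamini-Hochberg adjusted p = 0.0395). PHC1, a scaffold subunit, changed by 0.82 and the chromatin reader CBX6 by 0.71 (limma, Benjamini-Hochberg adjusted p = 0.0253 and 0.0278). PCGF2 and PHC1 share 1148 and 1105 exonic bases with the oppositely placed genes CISD3 and M6PR, so their values are uncertain if strand was not kept. None was higher and 4 were lower after the common median, and after quantile normalization 1 and 3. The number higher was 2 without either of binding replicates 1 and 2, 1 without either of binding replicate 3 and non-binding replicate 1, and 0 without either of non-binding replicates 2 and 3. RNF2 passed when binding replicate 1 was left out and failed to pass when any other library was.

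Other genes used as stem cell markers or tied to self-renewal numbered 40, of which 30 were tested, 9 were higher, 2 were lower and 19 did not pass, beside 19.6% and 7.12% of all tested genes, with a median log2 change of 0.31. Of the 9, GLI2, named after its values were seen, was at 2.84, 1.95 and 2.27 TPM in binding replicates, against 0.871, 0 and 0.601 TPM in non-binding replicates. GLI2 reached the filter only through the binding libraries, so its call carries no weight. Without any 1 binding library it was not tested. The integrin subunits ITGB1 and ITGA6 (CD49f, a marker of mammary stem cells) were higher. ITGA6 was listed at 115, 90.9 and 90.8 TPM in binding replicates, against 56.1, 50.4 and 62.7 TPM in non-binding replicates (log2 change 0.79, SE 0.15; limma, Benjamini-Hochberg adjusted p = 0.0167). ITGB1 changed by 0.81 and the Notch ligand gene JAG1 by 0.95 (limma, Benjamini-Hochberg adjusted p = 0.0136 for each), and these 3 genes also passed after either scaling. The genes that were lower, named after their values were seen, were NOTCH3 and EZH2, the methyltransferase of Polycomb repressive complex 2. NOTCH3 had a mean of 5.14 ± 1.09 TPM in binding against 9.86 ± 1.78 TPM in non-binding cells, and EZH2 of 94.7 ± 6.25 against 135 ± 12.3 TPM (SD, n = 3 each). The count after the common median was 3 higher and 4 lower, and after quantile normalization 4 and 4. It was 3 and 1 without a filter, 11 and 2 without mitochondrial genome transcripts, and the number lower was 4 among genes of at least 5 TPM. The number higher was 5 without either of binding replicate 1 and non-binding replicate 1, 4 and 3 when binding replicates 2 and 3 were left out in turn, and 1 and 0 when non-binding replicates 2 and 3 were. The number lower was 1 without any 1 of binding replicates 1 and 2 and non-binding replicate 1, and 0 without any of the others. The pluripotency genes POU5F1, NANOG, LIN28A and SALL4 did not reach the filter.

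**Figure D4:**
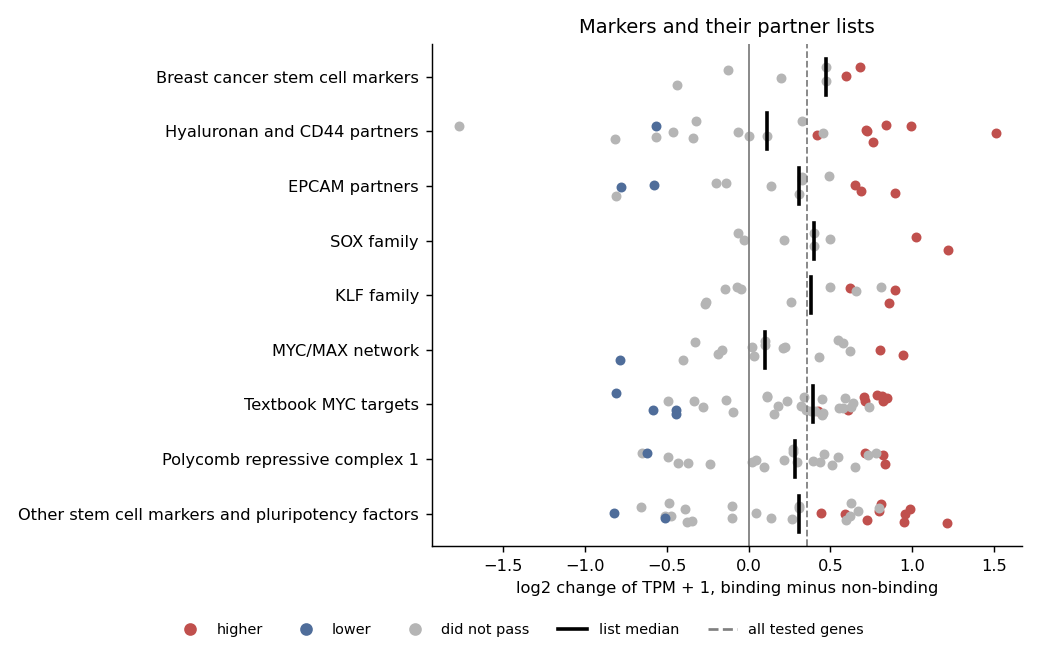
Log2 change of TPM + 1, binding minus non-binding (horizontal axis), of each tested gene in the marker set and in 8 partner lists (rows); red and blue points passed as higher and lower in the binding cells, grey points did not, black bars are list medians and the dashed line is the median of all tested genes. Vertical scatter within a row carries no meaning; list medians run from 0.10 (MYC/MAX network) to 0.47 (markers).

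For each tested member, 1 gene of at least 10 TPM on average was sought whose log2(TPM + 1) followed it most closely over the 6 libraries, as a description with no test. It was SDC4 for CD44 (r = 0.999), CLTC for CD24 (r = 0.998), RNF20 for KLF4 (r = 0.996), VEGFA for MYC (r = 0.994), APLP1 for SOX9 (r = 0.990), CDC42P1 for BMI1 (r = 0.988) and MFSD3 for EPCAM (r = 0.981). With 6 libraries r over 0.95 was common for some members and rare for others. Of 7882 genes compared, 448 had r over 0.95 with CD44, 204 with KLF4, 186 with CD24, 55 with SOX9, 16 with MYC and 2 with BMI1. For EPCAM it was 47 of 7883. An r over both groups also takes in the difference between them.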

How the data were processed

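Per the labels' protocols, libraries were made from total RNA of sorted cells by depleting ribosomal RNA and priming at random. The deposited values are TPM per Ensembl gene, as the column sums of 1000000 show, and the submitters' processing notes name hg38. Which aligner, counter, annotation, strand setting and filters were used is not stated by any source used here. Counting intervals were left out because TPM hide depth. TPM are shares, so one abundant class lowers all other values.

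The 15574 genes reaching 1 TPM in 3 or more libraries were fitted on log2(TPM + 1) by limma 3.58.1 (R 4.3.3, intensity trend, two-sided tests, Benjamini-Hochberg over all of them at 0.05). This scale understates changes of low genes. The script was tested on simulated data. Intervals are limma's 95% intervals. Positions, transcripts and overlaps came from GENCODE release 29, promoters from RefSeq. The file lists CEMIP2 as TMEM2.

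The members and the 8 partner lists were chosen by role with earlier results of these data known. Named genes were all members, the 3 tested genes with the smallest p in each list, and the members' paralogues PROM2, SOX8, SOX10, KLF2, KLF5, MYCN, MYCL and PCGF2; 1 gene that the rule names and 1 cell marker are not reported here; others are said to be chosen after their values, or are cell markers. Alternatives were a pseudocount of 0.1, no filter, at least 5 TPM, a common median, quantile normalization, no mitochondrial genome transcripts, no trend, a replicate block and leaving out each library.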

Additional observations from a re-analysis of the deposited data

How the results depend on the processing

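The 7 tested members were refitted under 14 alternatives, and 94 of 98 recomputed changes kept their sign. The exceptions were all of MYC, at -0.12 with the common median, -0.014 after quantile normalization, -0.16 without binding replicate 1 and -0.02 without non-binding replicate 3. With 1 library left out MYC ran from -0.16 to 0.44. Higher members numbered 0 with the common median, 0 with quantile normalization, 1 without an intensity trend and 0 to 2 with 1 library left out; lower members numbered 1 with the common median. Over all genes, 3047 were higher and 1109 lower. Without a filter these were 1373 and 500, with the common median 962 and 1890, without an intensity trend 1992 and 567, without mitochondrial genome transcripts 4477 and 813, and with 1 library left out 150 to 2097 and 36 to 930. Higher genes with quantile normalization numbered 1197. The fewest calls came without non-binding replicate 3, then without non-binding replicate 2; the cause was not tested. The difference in mean log2 CD44 to CD24 ratio, 1.03, ran from 0.85 to 1.16 with 1 library left out. Whether replicate numbers pair the libraries is not stated. Deviations of same-numbered libraries correlated at 0.03, -0.02 and 0.03 across genes, for replicates 1, 2 and 3. Those of differently numbered libraries correlated at -0.07 to 0.06. With 3 libraries in each group such values cannot show whether libraries were paired. With a replicate block 3174 genes were higher and 1132 lower, and 2 members were higher. Without an intensity trend 1 EPCAM partner and 1 other stem cell marker were lower, and with the replicate block 2 Polycomb genes were lower. Depth is unknown, so its limits could not be set.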
